A study of Rattus norvegicus with 18 samples.

Results

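The MHC class II genes are described here in rat 9L tumours and in cultures of the same cells. The 9 genes were taken by name, as the probe sets of the array whose single gene symbol is Cd74, Ciita, RT1-Da, RT1-Db1, RT1-Ba, RT1-Bb, RT1-DMa, RT1-DMb or RT1-DOb. All 9 genes had such a probe set and each had 1, so the group is 9 of the 27363 probe sets of the array and 9 of the 14324 genes that a single symbol names. They were picked on their high log2 level in tumour tissue against cultures. That difference is therefore given as a description with no test, and the tests concern low oxygen within tumours and within cultures.

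MHC class II molecules are pairs of an alpha and a beta chain that carry peptides from taken-up protein to the cell surface, where CD4 T cells read them. Dendritic cells, B cells and macrophages make them, and many other cells can be brought to do so by interferon gamma. Transcription of the genes depends on the coactivator Ciita, which binds no DNA itself and acts through RFX and NF-Y proteins at a shared promoter module. The invariant chain Cd74 fills the groove of a new molecule on its way through the cell, the DM pair exchanges the remnant of Cd74 for peptides, and the DO pair restrains DM.

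The study asked which genes mark hypoxic parts of a solid tumour and how far cultured cells under low oxygen show the same. 9L gliosarcoma cells were injected under the skin of male Fischer 344 rats 6 weeks of age. Pieces of later passages of that tumour (p5 or p6) were tied to the epigastric artery and vein of rats of this strain, the isogenic host. From 3 such tumours, regions without binding of the hypoxia marker EF5 (normoxic) and regions with it (hypoxic) were cut by laser capture. For comparison, 9L cells grew in culture at about 20% oxygen (normoxic) or 0.2% oxygen (hypoxic) for 6 h or 16 h, which makes 4 groups of 3 cultures. No genotype change is given for any group. Cultures of the same time differ in oxygen, and all derive from a single cell line. Tumour regions have no stated oxygen level and were parted by EF5 binding. They also differ from the cultures by growth in a host and by laser capture. The host is immune competent, so a captured region can hold host cells beside tumour cells. Total RNA (2 ng per sample) was amplified with the NuGEN Ovation WT-Pico kit and hybridized to the array, 1 array per sample. Tumour 3 carries another kind of code in its title than tumours 1 and 2, and the 6 h and 16 h cultures also differ in the style of their codes. Exposure time and whatever those codes mark cannot be told apart in the cultures.

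Of 8 hypoxia genes, all had the higher mean in hypoxic tumour regions, though 0 passed the test there. Car9, a carbonic anhydrase induced by HIF, was higher in the hypoxic region by 1.83, 1.82 and 2.16 log2 units in tumours 1, 2 and 3. Egln3, a HIF hydroxylase, differed by only 0.12 on average and was lower by 1.88 in tumour 2. At both times in culture, 7 of 8 hypoxia genes passed the test. The glial markers Gfap and S100b ran from 4.86 to 5.77 in the tumour arrays, against 4.30 to 5.19 in cultures. Vim and Sparc, which mesenchymal cells express, ran from 10.61 to 12.38 in tumours and from 11.18 to 12.36 in cultures. Other genes of the same gliosarcoma list were higher in tumours. Col1a1 ran from 8.90 to 9.51 against 7.99 to 8.73 in cultures. Nes ran from 6.97 to 7.81 against 5.91 to 6.41, and Sox10 from 6.83 to 7.26 against 6.27 to 6.67. The mean of all 8 genes of the list ran from 8.09 to 8.30 in tumours and from 7.47 to 7.80 in cultures. The normoxic array of tumour 3 stood nearest to cultured cells, with a Pearson correlation across probe sets of 0.941 with the mean normoxic culture against 0.865 to 0.892 for the other tumour arrays.

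The promoter module is shown for the 6 class II genes in which its letters were found, because it is the feature these genes share that their choice did not use. RefSeq promoter windows (assembly GRCr8, 250 bases before to 50 after the start) were in hand for 7 of the 9 genes. The search asked for the X-like letters GNNACNG followed, after 15 to 30 bases on the strand of the gene, by the Y-box letters TGATTGG. These letters were chosen after the promoters had been read. Each stretch below reads 5′ to 3′ on the strand of the gene, and the capitals mark the X-like letters first and the Y box second.
RT1-Da, chr20:4515327-4515376, plus strand: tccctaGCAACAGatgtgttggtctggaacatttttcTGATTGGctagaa
RT1-Db1, chr20:4560232-4560280, minus strand: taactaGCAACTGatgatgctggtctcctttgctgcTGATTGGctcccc
RT1-Ba, chr20:4576975-4577024, plus strand: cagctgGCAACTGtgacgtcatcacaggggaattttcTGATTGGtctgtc
RT1-Bb, chr20:4604169-4604217, minus strand: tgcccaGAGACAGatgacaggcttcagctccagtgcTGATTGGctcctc
RT1-DMa, chr20:4712389-4712438, minus strand: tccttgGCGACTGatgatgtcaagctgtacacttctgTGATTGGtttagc
RT1-DOb, chr20:4627596-4627642, minus strand: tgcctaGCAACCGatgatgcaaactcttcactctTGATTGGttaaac

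The spacer between both motifs was 21 to 24 bases in all 6, and the X-like letters began 76 bases (RT1-Ba) to 113 bases (RT1-DOb) before the start of the gene. The module was in 6 of 7 windows, Cd74 being the window without it. Of all 33469 windows, 93 held it (0.278%), or 153 (0.457%) on either strand. Because the letters were chosen after these promoters had been read, these shares are a description and no test of enrichment. Alone, TGATTGG was in 7.06% of all windows on either strand and GNNACNG in 88.1%, so the X-like letters alone are common. Where the letters are absent, nothing follows about the factors that bind. The reference assembly comes from the BN strain, whereas the cells and hosts are Fischer rats. Class II genes differ between rat strains and resemble each other, and whether the array's probes match the Fischer alleles or pick up a related gene was not tested.

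All 9 genes were higher in tumour tissue than in culture. The log2 signals of the 6 tumour arrays lay above those of all 12 cultures for 9 of 9 genes, which held for 24.8% of all probe sets. Normoxic tumour regions exceeded normoxic cultures by at least 1 log2 unit for 9 of 9 genes (4.01% of probe sets), and hypoxic regions exceeded hypoxic cultures by that much for 8 of 9 (6.29% of probe sets). Ciita was the gene that fell short of it in hypoxic regions, with 0.73. Since the genes were picked for this difference, nothing is read from these counts. In bulk RNA of this kind, fewer cells of a type and less RNA per cell cannot be told apart.

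RT1-Da, the alpha chain of the DR-like molecule, had normoxic log2 signals of 11.74, 11.78 and 11.96 in tumours 1, 2 and 3. The cultures ran from 5.03 to 5.47. The difference between normoxic groups was 6.56 log2 units. Cd74 was at 12.05, 11.81 and 12.01 in normoxic regions and between 5.47 and 5.96 in the cultures, a difference of 6.29. Low signals are compressed on this scale, so such differences may be understated. For both genes the normoxic tumour arrays were close together, with an SD of 0.11 for RT1-Da and 0.13 for Cd74 (n = 3).

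The DQ-like pair followed with smaller differences. RT1-Ba, the alpha chain, was higher in normoxic regions by 4.24 log2 units and RT1-Bb, the beta chain, by 3.54. RT1-DMb, the beta chain of the DM peptide editor, was higher by 3.24 and RT1-Db1, the DR-like beta chain, by 2.89. RT1-DMa, the DM alpha chain, was higher by 1.99, RT1-DOb, the beta chain of the DO inhibitor, by 1.37, and Ciita by 1.25. These values are differences of 1 probe set between groups. How they rank among genes also depends on how each probe set responds, so they give no order of RNA amounts. In culture the signals of the 9 genes lay between 4.07 (RT1-Db1) and 7.72 (RT1-DMa). The deposited values carry no detection call, so whether the cultured cells held any of these RNAs is not settled by them.

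**Figure D1:**
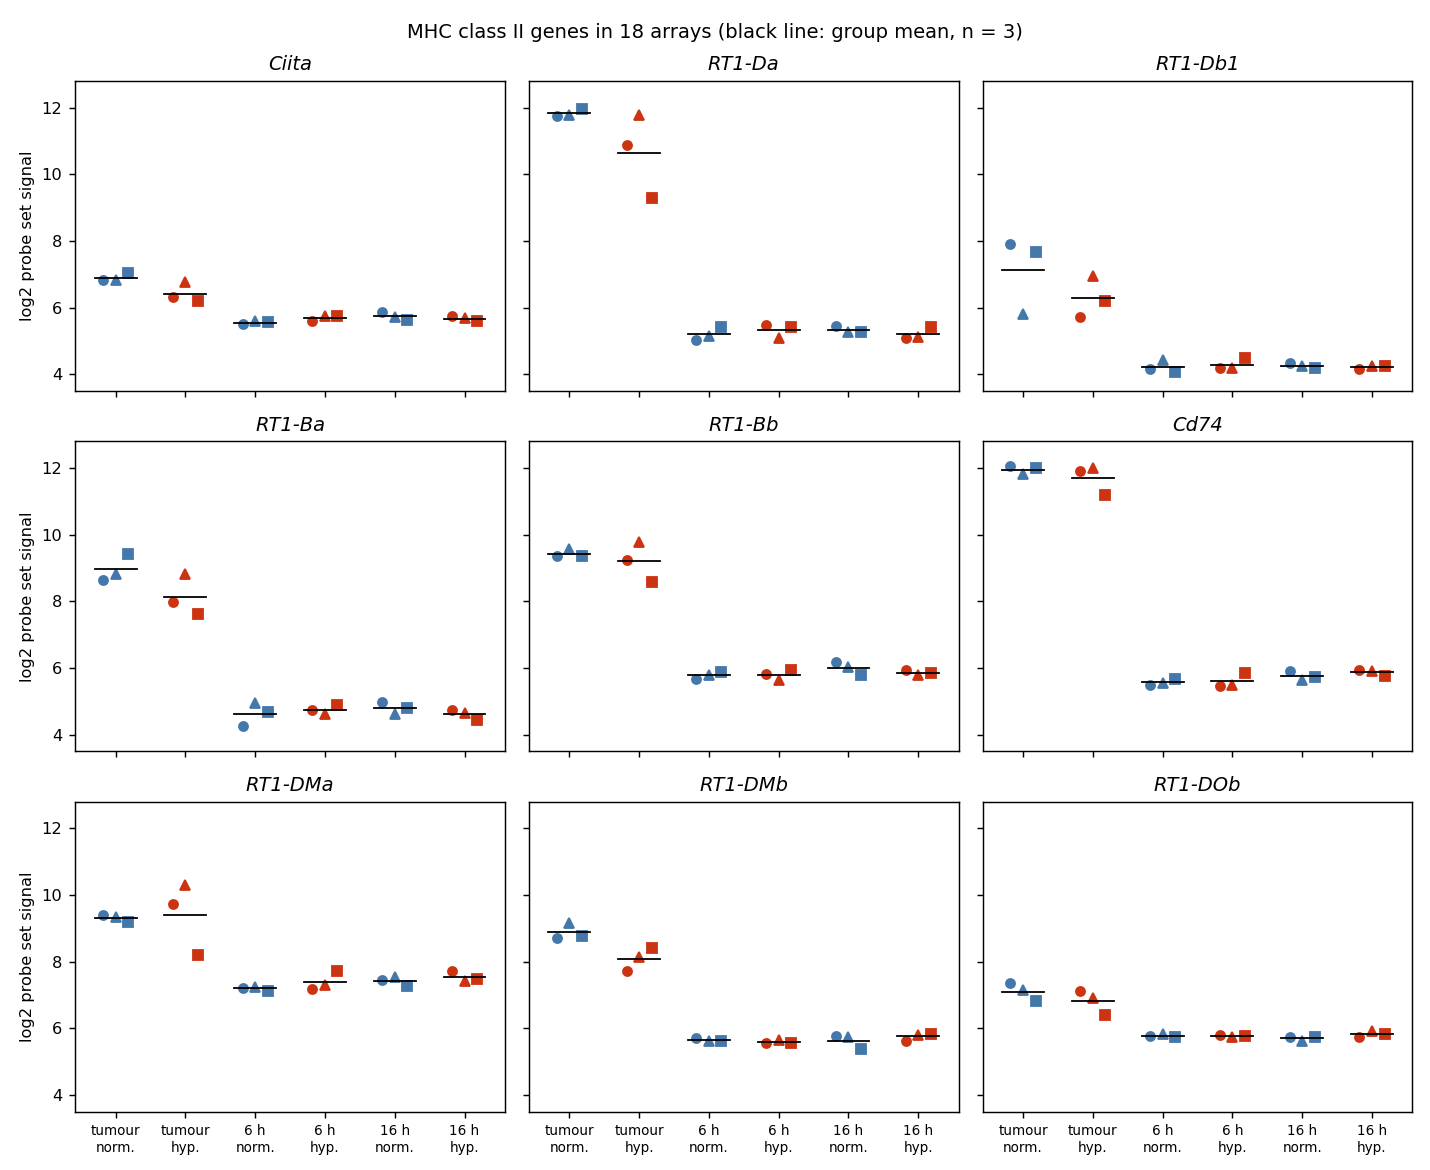
Log2 probe set signal of each MHC class II gene in 18 arrays, with normoxic arrays in blue, hypoxic arrays in red, the group mean (n = 3) as a black line, and circles, triangles and squares for tumours 1, 2 and 3 or for the cultures of a group in order of their number. All tumour arrays lie above all cultures in each panel, and the hypoxic tumour arrays are more spread than the normoxic ones for RT1-Da (9.29 to 11.78).

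Within tumours, hypoxic regions had the lower mean for 8 of the 9 genes, and no gene passed the test. Across the array, 0 of 27363 probe sets passed at an adjusted p of 0.05 in this comparison (0%), Car9 included, whose adjusted p was 0.141. At any size, 35.2% of probe sets were lower in hypoxic regions. The median difference of the 9 genes was -0.47 log2 units, beside 0.08 for all 14324 genes. An unadjusted p under 0.05 with a lower level in hypoxic regions was reached by RT1-Da and RT1-DMb (2 of 9 genes and 5.7% of probe sets). Brighter probe sets were more often lower in hypoxic regions: in the brightest 25% of the array, which holds 6 of the 9 genes, 52.9% of probe sets were lower, and 5 of these 6 genes were. The next brightest 25% holds the other 3 genes, Ciita, RT1-Db1 and RT1-DOb, which were all lower, against 39.0% of its probe sets.

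Ciita had log2 signals of 6.82, 6.83 and 7.04 in normoxic regions and 6.31, 6.76 and 6.21 in hypoxic regions. All 3 hypoxic arrays lay below all 3 normoxic arrays, and tumour 2 had the smallest difference. The mean difference was -0.47 ± 0.22 log2 units (SE, 3 tumours; 1.39-fold lower), with an adjusted p of 0.589 in limma.

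Among the chains that form the surface molecules, the alpha chain RT1-Da differed much between tumours. Its hypoxic regions were at 10.88, 11.78 and 9.29, so tumour 2 had the same signal in both regions and tumour 3 was 2.67 log2 units lower. The mean difference was -1.18 ± 0.48 (unadjusted p = 0.0482, adjusted p = 0.542 in limma), and it came to -0.43 without tumour 3. RT1-Ba repeated this order of tumours. It was at 8.65, 8.81 and 9.41 in normoxic and 7.98, 8.82 and 7.62 in hypoxic regions, a mean difference of -0.82 ± 0.35 (adjusted p = 0.561), and of -0.33 without tumour 3. For both alpha chains tumour 2 was level, and the groups overlapped through that tumour alone.

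The beta chain RT1-Db1 departed from RT1-Da in its order of tumours, while RT1-Bb had that of RT1-Ba with a smaller mean difference. RT1-Db1 was at 7.90, 5.81 and 7.68 in normoxic regions and at 5.71, 6.94 and 6.19 in hypoxic regions. Tumours 1 and 3 were lower in the hypoxic region by 2.19 and 1.49 log2 units, while tumour 2 was higher by 1.13. In the normoxic array of tumour 2, RT1-Db1 was the lowest of the normoxic values, whereas RT1-Da in the same array was within the range of the others. RT1-Bb had the small difference of -0.22 ± 0.24 (adjusted p = 0.757), with 9.37, 9.57 and 9.35 in normoxic and 9.25, 9.78 and 8.59 in hypoxic regions. Its 95% confidence interval, from -0.81 to 0.36, holds values on both sides of 0.

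Cd74, the invariant chain, was at 11.92, 12.01 and 11.19 in the hypoxic regions. Tumour 1 differed from its normoxic region by -0.12 log2 units, tumour 2 by 0.20 and tumour 3 by -0.82. The mean difference was -0.25 ± 0.25 (adjusted p = 0.741).

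The DM chains, which work as a pair, went opposite ways in 2 of the 3 tumours. RT1-DMb was at 8.72, 9.15 and 8.78 in normoxic regions and at 7.71, 8.13 and 8.41 in hypoxic regions, with no overlap. It was lower by 1.01, 1.02 and 0.36 log2 units in tumours 1, 2 and 3, a mean of -0.80 ± 0.22 (1.74-fold lower). This had the smallest p of the 9 genes (unadjusted p = 0.0098, adjusted p = 0.379). RT1-DMb passed, with an adjusted p of 0.0218, only in the fit of all 18 arrays together, in which 1408 probe sets passed. RT1-DMa was at 9.39, 9.33 and 9.18 in normoxic regions and at 9.73, 10.31 and 8.21 in hypoxic regions. It was higher by 0.34 and 0.98 in tumours 1 and 2 and lower by 0.97 in tumour 3, so its mean of 0.12 ± 0.37 (adjusted p = 0.915) covers both directions.

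RT1-DOb was at 7.36, 7.15 and 6.81 in normoxic and at 7.12, 6.92 and 6.41 in hypoxic regions. It was lower by a similar amount in every tumour (0.24, 0.23 and 0.40), although the groups overlapped, since tumours differed from each other by more than their regions did. The mean difference was -0.29 ± 0.18 (adjusted p = 0.657). With Ciita and RT1-DMb it was 1 of 3 genes lower in all 3 tumours, as were 11% of all probe sets. Ciita and RT1-DMb were the 2 genes whose hypoxic arrays all lay below the normoxic ones, as for 4.62% of probe sets.

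**Figure D2:**
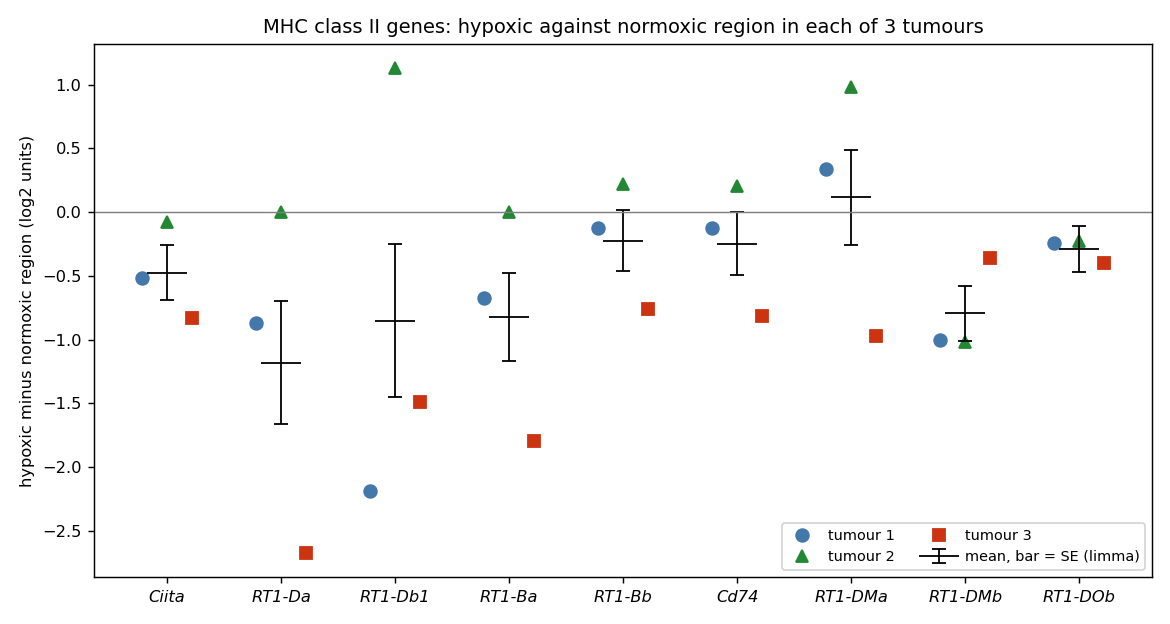
Hypoxic minus normoxic region in log2 units for each MHC class II gene, with a point for each of the 3 tumours and the mean with its limma standard error as a black cross and bar. Tumour 2 lies at or above 0 for 6 genes, and tumour 3 lies lowest for 7 of the 9.

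The size of the difference varied between tumours. Averaged over the 9 genes, the hypoxic region was lower by 0.60 log2 units in tumour 1, higher by 0.13 in tumour 2 and lower by 1.12 in tumour 3. The number of genes lower in the hypoxic region was 8, 3 and 9 of 9. Of all 27363 probe sets, 11370, 13738 and 9084 were lower in tumours 1, 2 and 3. Across the 6 tumour arrays, 34 of 36 pairs of these genes had a Pearson correlation above 0, with a median of 0.617. The share among other genes was not computed, so this is not read as particular to class II genes. These correlations describe 6 arrays of 3 animals that share tumours and regions. Ciita and RT1-Ba stood closest (0.979), followed by the 0.918 of Cd74 and RT1-Da. RT1-DMa and RT1-DMb had the lowest value (-0.343), and the chains of the DR-like pair, RT1-Da and RT1-Db1, were at 0.476. Over the 12 cultures the median was 0.203, from -0.391 to 0.727.

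Markers of host cells varied with the class II genes in part. The macrophage list had a mean log2 signal of 8.10, 8.30 and 8.66 in normoxic regions and 7.78, 8.05 and 7.53 in hypoxic regions, against 5.17 to 5.36 in cultures. Of its 15 measured genes 12 were lower in hypoxic regions (median -0.51) and 0 passed, with C1qa, a chain of complement C1q, lowest in p (-1.60 ± 0.39). C1qa passed without tumour 1 (-1.94, adjusted p = 0.00184 in limma). That fit holds only tumours 2 and 3, and 563 probe sets passed in it. Without tumour 2 or without tumour 3, C1qa did not pass. Ptprc, the leukocyte antigen CD45, was at 8.41, 8.72 and 9.38 in normoxic and 6.51, 8.54 and 6.82 in hypoxic regions. Like RT1-Da and RT1-Ba, it was much lower in the hypoxic region of tumours 1 and 3 and nearly level in tumour 2. Other macrophage genes did not share this: Cd68, a lysosomal protein, had a difference of 0.13 ± 0.22, and Cd163, a scavenger receptor, of 0.11 ± 0.19.

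T and NK cell markers had means of 6.79, 6.72 and 7.72 in normoxic regions and 6.24, 6.51 and 6.38 in hypoxic regions (cultures 5.26 to 5.57). Of 12 genes 11 were lower and 0 passed. Cd3d, a chain of the T cell receptor complex, was at 7.83, 6.32 and 10.27 in normoxic and 5.46, 5.45 and 6.51 in hypoxic regions, so the normoxic region of tumour 3 had its highest value by far. Dendritic cell markers were nearly level, at 6.88, 6.67 and 6.96 in normoxic and 6.75, 6.69 and 6.86 in hypoxic regions (cultures 5.68 to 5.99; 4 of 7 genes lower, median -0.02). B cell markers were at 5.58, 5.65 and 5.56 in normoxic and 5.83, 5.58 and 5.76 in hypoxic regions (cultures 4.89 to 5.14; 2 of 6 genes lower, median 0.23). Log2 array signals have no level at 0, so no marker can be called absent. The part of any of these cells in the class II signals was not tested.

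**Figure D3:**
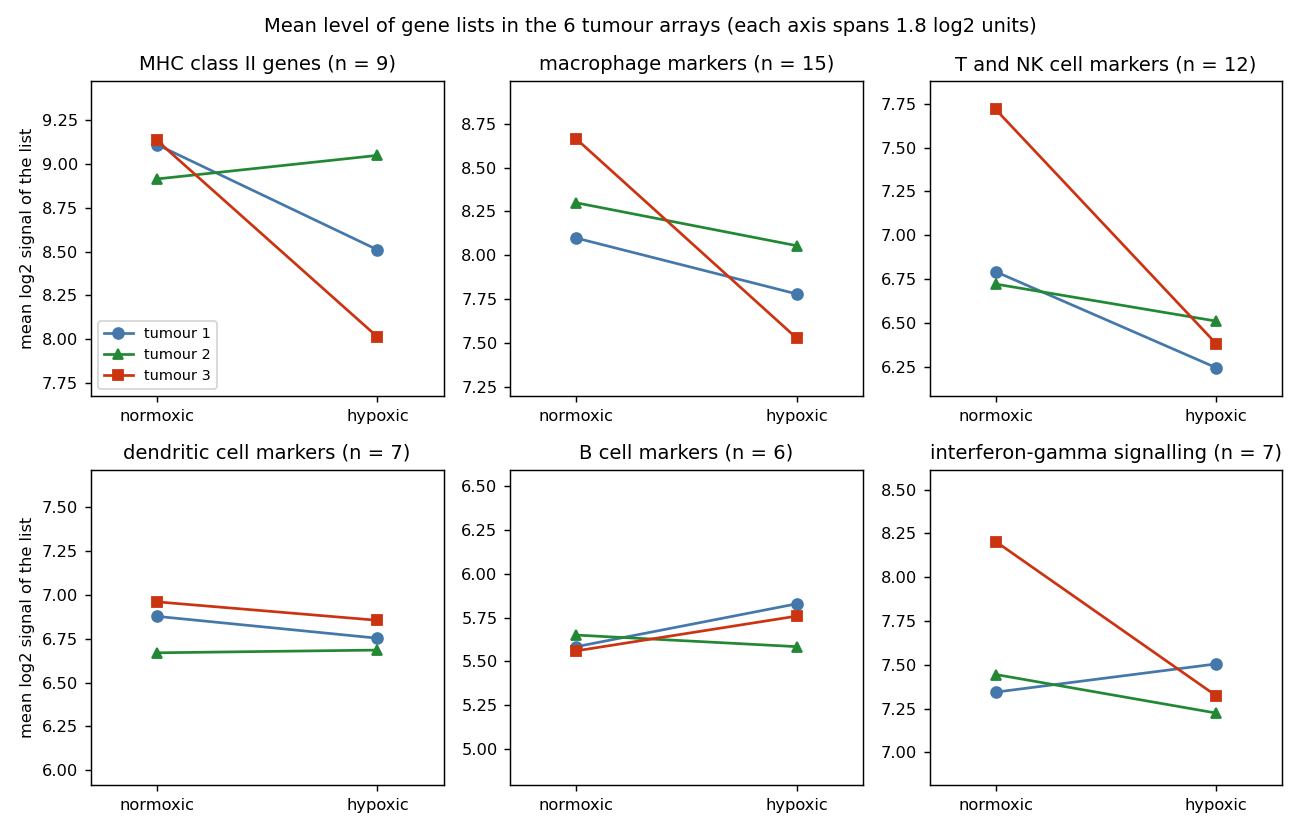
Mean log2 signal of the MHC class II genes and of 5 other gene lists in the normoxic and hypoxic region of each of the 3 tumours, with a line joining both regions of a tumour and every axis spanning 1.8 log2 units. In tumour 3 the class II, macrophage, T and NK cell and interferon gamma lists are lower in the hypoxic region; in that tumour the dendritic and B cell lists differ less between regions.

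Genes that act before or after the class II molecules were described in the same way, and 0 passed the test in any list. Of 10 transcription genes 3 were higher and 7 lower in hypoxic regions (median -0.12). Rfx5 and Rfxap, partners in the RFX complex that binds the X box, lay on opposite sides of 0. Rfx5 was at 8.35, 8.78 and 7.56 in normoxic and 7.97, 7.30 and 7.10 in hypoxic regions, a difference of -0.77 ± 0.27 (adjusted p = 0.479). Rfxap had a difference of 0.74 ± 0.18 (adjusted p = 0.334) and was higher in every tumour. Irf8, a transcription factor of myeloid and B cells, was lower by 0.61, 0.76 and 1.02 in tumours 1, 2 and 3 (adjusted p = 0.316). The 3 NF-Y genes Nfya, Nfyb and Nfyc had differences of -0.13, -0.33 and -0.11.

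In interferon gamma signalling, 5 of 7 genes were lower (median -0.26). Ifngr1, the ligand-binding receptor chain, had a difference of -0.94 ± 0.29 (adjusted p = 0.42). Jak2, a kinase that associates with the receptor, had a mean difference of -0.77 ± 0.47, with -2.31 in tumour 3. Ifng itself was between 4.62 and 5.37 in all tumour arrays, with a difference of 0.06 ± 0.20. In peptide processing 5 of 7 genes were lower (median -0.19). Ctss, the cathepsin that trims the invariant chain, had differences of -1.31, -0.45 and -2.55 in the 3 tumours (adjusted p = 0.374). Ifi30, the lysosomal thiol reductase, had -0.97 ± 0.28, whereas the cathepsins Ctsb and Ctsd had 0.24 and 0.22. Without tumour 1, Ifngr1 (-1.33, adjusted p = 0.0221) and Ctss (-1.50, adjusted p = 0.0248) passed, among 563 probe sets. Neither passed without tumour 2 or without tumour 3.

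Of 8 genes of costimulation, trafficking and class II recognition, 6 were lower (median -0.18). Lag3, an inhibitory T cell receptor for class II, was at 8.31, 8.39 and 10.02 in normoxic regions and 7.07, 6.68 and 6.72 in hypoxic regions, without overlap. Its difference of -2.09 ± 0.39 had an adjusted p of 0.241, and without tumour 1 it passed (-2.50, adjusted p = 4.58e-05 in limma). That fit holds only tumours 2 and 3, and 563 probe sets passed in it. Without tumour 2 or without tumour 3, Lag3 did not pass. Cd4, the coreceptor that binds class II and is also made by rat macrophages, had -0.98 ± 0.26. Cd80 and Cd86, the B7 ligands of antigen-presenting cells, had -0.21 and -0.19, with both directions among the tumours.

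No class II gene passed the test of low oxygen in cultured cells. At 6 h 0 of 9 genes passed, beside 0.19% of probe sets (52), and at 16 h 0 of 9 beside 0.705% (193). An unadjusted p under 0.05 was reached by 0 of 9 genes at either time, beside 2.03% of probe sets on the lower and 3.11% on the higher side at 6 h, and 3.79% and 4.41% at 16 h. At 6 h the differences ran from -0.07 for RT1-DMb to 0.20 for RT1-DMa, with a median of 0.07 (0.01 for all genes). At 16 h they ran from -0.19 for RT1-Ba to 0.15 for RT1-DOb, with a median of -0.04 (-0.03 for all genes).

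Ciita in culture was at 5.50, 5.59 and 5.56 (normoxic) and 5.61, 5.76 and 5.74 (hypoxic) at 6 h. At 16 h it was at 5.89, 5.74 and 5.62 (normoxic) and 5.74, 5.70 and 5.59 (hypoxic). The 6 h groups did not overlap but differed by only 0.16 ± 0.10 (adjusted p = 0.984 in limma), and the 16 h groups overlapped (-0.07 ± 0.10). Cd74 was at 5.50, 5.55 and 5.68 against 5.47, 5.50 and 5.86 at 6 h, and at 5.90, 5.64 and 5.73 against 5.96, 5.91 and 5.77 at 16 h, normoxic first. RT1-Da was at 5.03, 5.16 and 5.43 against 5.47, 5.08 and 5.42 at 6 h, and at 5.45, 5.26 and 5.26 against 5.09, 5.13 and 5.41 at 16 h. For both, normoxic and hypoxic cultures overlapped at both times. The intervals of the 6 h and 16 h differences stayed between -0.54 (RT1-Ba, 16 h) and 0.50 (RT1-DMa, 6 h) for all 9 genes. Those of the tumour comparison reached from -2.35 (RT1-Da) to 1.02 (RT1-DMa).

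The response at 16 h was also compared with that at 6 h. None of the 9 genes passed, nor did any other probe set in limma (0%), while 658 probe sets (2.4%) had a lower and 536 (1.96%) a higher response at 16 h at an unadjusted p under 0.05, and none of the 9 genes was among them. The differences between both times ran from -0.30 (RT1-Ba) to 0.20 (RT1-DMb), with a median of -0.12 beside -0.03 for all genes.

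**Figure D4:**
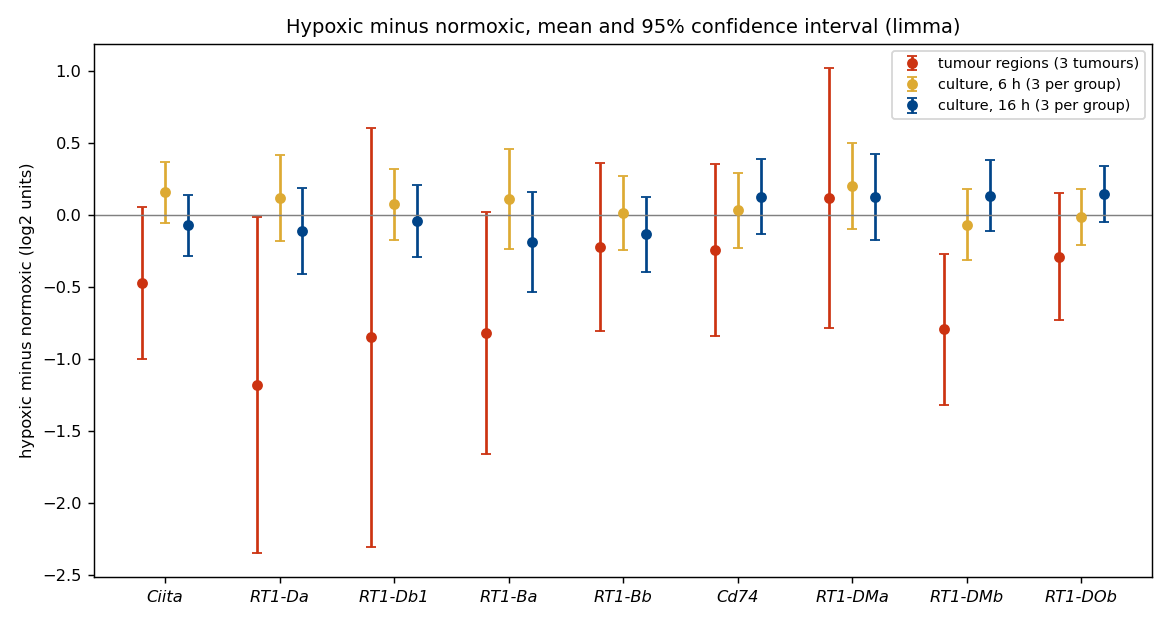
Hypoxic minus normoxic difference in log2 units for each MHC class II gene in tumour regions and in cultures at 6 h and 16 h, as the limma estimate with its 95% confidence interval. The culture estimates lie between -0.19 and 0.20, and the tumour intervals are wider for every gene.

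Whether tumours and cultures responded differently was tested directly, as the tumour difference minus the mean of both culture differences over 18 arrays in 9 pairs. This test uses the same tumour arrays as above, so it is no second measurement of them. Its fit gives tumours and cultures a shared spread for each probe set. Where tumours vary more than cultures, its p-values can be too small. None of the 9 genes passed, against 1.17% of probe sets (319). All 9 values were below 0, as were 36.7% of all probe sets, but that of RT1-DMa was above 0 after quantile normalization. The median was -0.52 log2 units, beside 0.08 for all genes. RT1-DMb came nearest to the threshold, at -0.83 ± 0.20 (adjusted p = 0.0788). An unadjusted p under 0.05 on the lower side was reached by 5 genes, Ciita, RT1-Da, RT1-Ba, RT1-DOb and RT1-DMb, and by 7.73% of probe sets. The values were -0.52 for Ciita (adjusted p = 0.181), -1.18 for RT1-Da (0.241 adjusted p), -0.78 for RT1-Ba (0.29 adjusted p) and -0.36 for RT1-DOb (0.229 adjusted p). Leaving out tumour 2 took the count of genes that passed from 0 to 3 (Ciita, RT1-Da and RT1-Db1). Leaving out tumour 3 took it to 1 (RT1-DMb). Over the whole array, the count rose from 319 to 1365 probe sets without tumour 2 and to 649 without tumour 3.

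The genes whose pattern was most like the class II mean were found by the Pearson correlation over all 18 arrays among 14315 other genes. The first 8 were Tyrobp (0.994), Lyz2 (0.994), Prex1 (0.993), Cxcl13 (0.991), Lilrb4 (0.986), C1qc (0.984), Sirpa (0.984) and Laptm5 (0.982). Tyrobp, Lyz2, C1qc and Laptm5 belong to the macrophage list. The arrays share tissue or culture, which sets most of this likeness. Over the 6 tumour arrays alone, Usp9x (0.985), Rpn1 (0.983), Kdm4a (0.980), Uxt (0.980) and Lyz2 (0.980) came first, of which Lyz2 is in both sets. Lyz2, macrophage lysozyme, was at 11.78, 11.81 and 11.86 in normoxic and 11.37, 11.77 and 10.74 in hypoxic regions, and between 4.39 and 5.06 in cultures. Usp9x and Uxt, by contrast, had their highest values in cultures.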

How the data were processed

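RNA of 6 tumour regions and 12 cultures was hybridized to 18 arrays. What the authors deposited is a log2 signal for each probe set, and the submitters' processing notes name RMA and Partek 6.5b. The sources used here do not give whether all 18 arrays were normalized in 1 run. These values hold no detection call and low signals are compressed, so differences of dim probe sets are understated. Precision is limited by the 3 arrays of each group.

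Symbols came from the platform annotation (15097 probe sets with 1 symbol, 323 with several, 11943 with none). Two-sided tests were run with lmFit and eBayes of limma 3.58.1 (R 4.3.3). P-values were adjusted by Benjamini-Hochberg over the 27363 probe sets, with 0.05 as the threshold. Tumours were a fixed block in the tumour fit, the 12 cultures were fitted in 4 groups, and the tumour and culture responses were compared over 9 pairs. The fits were tested on simulated data. In the tumour comparison, 0% of changes of 0.5 or 1 log2 unit were recovered, and 74% of changes of 2. Changes of 1 log2 unit were recovered at 84% at 6 h and 92% at 16 h in culture. For the tumour response minus the culture response it was 34%. The simulation gave tumours and cultures the same spread for a probe set, so this 34% may not hold where tumours vary more. That no class II gene passed in tumours thus says little about differences of up to 1 log2 unit. Promoter letters were searched in Python 3.11.15.

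Where a gene has several probe sets the one with the highest mean stands for it. Named genes are the class II genes, genes of smallest tumour p in most other lists, Irf8, Lag3 and C1qa, which passed a test, and genes most alike in pattern. Car9 served as a check of the labels. The genes of smallest tumour p in the dendritic, B cell and gliosarcoma lists, Clec9a, Cr2 and Sox2, were not described above. Sox2 had a mean of 7.40 in normoxic and 8.03 in hypoxic regions (unadjusted p = 0.0128 in limma). Beyond that rule, Gfap, S100b, Vim, Sparc, Cd68, Cd163, Nfya, Nfyb, Nfyc, Ifng, Ctsd, Cd86 and Egln3 were named after their values were seen. So were Col1a1, Nes and Sox10. The class II genes and the 10 other lists were chosen with earlier results of these data known. The lists are class II transcription, interferon gamma signalling, peptide processing, costimulation, macrophage, dendritic, B, T and NK cell, gliosarcoma and hypoxia genes. The gliosarcoma list had 4 of 8 genes lower in hypoxic tumour regions (median 0.01) and the hypoxia list 0 of 8 (median 1.83). Since no label states that same-group cultures came from independent experiments, a p-value here reflects only how far these samples spread, and that spread may be technical.

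Deviations of same-numbered normoxic and hypoxic arrays from their group means had correlations of 0.125, 0.193 and 0.192 at 6 h and 0.130, 0.188 and 0.307 at 16 h. For the tumours, paired because both regions come from 1 tumour, they were 0.128, 0.0357 and 0.273. An array of another number came closer for culture 6 at 6 h (0.177) and for tumour 2 (0.167), so the check does not show that culture numbers mark pairs. Alternatives were other scalings (quantile, median centring, cyclic loess), leaving out the dimmest 25% of probe sets, trended and robust variance, adding or dropping the replicate block, other sets of arrays in the fit, and leaving out each replicate.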

Additional observations from a re-analysis of the deposited data

Results flagged for a closer look

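Irf8, Lag3 and C1qa, from the lists beside the class II genes passed the test of a different response to low oxygen in tumours and in cultures (limma over 18 arrays in 9 pairs). Irf8 had a tumour response minus culture response of -0.78 log2 units (adjusted p = 0.0446), lower in the hypoxic region in 3 of 3 tumours. Lag3 had -2.02 (adjusted p = 0.0355), and C1qa had -1.77 (adjusted p = 0.0475), both lower in 3 of 3 tumours. The fit gives tumours and cultures a shared spread, so these p-values can be too small where tumours vary more. All 3 calls were lost whenever 1 of the 6 culture pairs was left out, with values of -0.81 to -0.73 for Irf8, -2.06 to -1.96 for Lag3 and -1.84 to -1.72 for C1qa. Irf8 was also lost without tumour 3 (-0.67, adjusted p = 0.0609) and without the pairs as blocks (adjusted p = 0.109), and C1qa under quantile normalization, median centring and cyclic loess. Over all alternatives the adjusted p ran from 0.00831 to 0.128 for Irf8, from 0.00828 to 0.106 for Lag3 and from 0.0104 to 0.134 for C1qa.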

How the results depend on the processing

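The count of class II genes that passed was 0 in each comparison and stayed 0 under every alternative run for the 6 h, 16 h and 16 h minus 6 h responses. In tumours it became 1 (RT1-DMb, -0.80) with all 18 arrays and 9 pairs as blocks. In that fit, which also shares the spread of tumours and cultures, Irf8, Rfxap, Ifngr1, Ctss, Ifi30, Lag3, Cd4 and C1qa passed as well. For the tumour response minus the culture response it became 1 (RT1-DMb, -0.94, adjusted p = 0.0366) after cyclic loess and ran from 0 to 3 when 1 tumour or culture pair was left out. The cause of these moves was not tested. The median over the 9 genes kept its direction in tumours (-0.67 to -0.30 with a tumour left out), at 16 h and in both differences between responses. At 6 h it ran from -0.01 to 0.12 with a culture left out.

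Adding the culture number as a replicate block at 6 h and 16 h, or dropping the tumour as a block, left the count of class II genes that passed at 0 and changed no other call of theirs. Dropping the pairs as blocks made Ifngr1 pass in the tumour response minus the culture response (-1.31, adjusted p = 0.0462).

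Single genes turned direction in a few cases, all with differences that had not passed. At 6 h, Cd74 was at -0.0107 under quantile normalization, -0.00816 under median centring and -0.0128 under cyclic loess, and RT1-Bb was at -0.0295, -0.0270 and -0.0294. With 1 culture left out, the 6 h values ran from -0.0939 to 0.102 (Cd74), -0.0552 to 0.0952 (RT1-Bb), -0.0758 to 0.274 (RT1-Ba), -0.0319 to 0.00402 (RT1-DOb) and -0.0207 to 0.182 (RT1-Db1), and that of RT1-DMa in the 16 h minus 6 h difference from -0.195 to 0.0796. With 1 tumour left out, the tumour difference ran from -0.316 to 0.660 (RT1-DMa), -0.471 to 0.0386 (Cd74) and -0.443 to 0.0443 (RT1-Bb). The tumour response minus the culture response of RT1-DMa was at 0.0313 under quantile normalization and ran from -0.478 to 0.499 with a pair left out, and that of RT1-Bb from -0.382 to 0.106.

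Counts over all probe sets moved more. In tumours 0 became 1408 with all 18 arrays, 563 without tumour 1, 22 with trended and robust variance and 1 without the dimmest 25%. At 6 h 52 became 6 and at 16 h 193 became 33 with all 18 arrays in the fit, and with a culture left out they ran from 27 to 50 and from 74 to 171. The 319 of the tumour minus culture response became 638 after quantile normalization and ran from 44 to 1365 with a pair left out. Averaging all probe sets of a gene was not run, since each class II gene has 1, and none of them is among the dimmest 25%.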

Other observations

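Class II genes outside the 9 described above were read in the same arrays, chosen after the promoters had been searched. RT1-DOa, the alpha chain of the DO inhibitor, had normoxic values of 7.59, 7.60 and 6.83 in tumours 1, 2 and 3 and hypoxic values of 7.33, 7.20 and 7.13. The cultures ran from 5.98 to 6.33, so all tumour arrays lay above all cultures, as for its partner RT1-DOb. The region difference was -0.12 ± 0.21 (adjusted p = 0.845 in limma), with tumours 1 and 2 lower and tumour 3 higher by 0.29. RT1-DOb was lower in all 3 tumours. RT1-Ha, whose promoter window holds the same X and Y letters as the 6 windows shown above, was at 5.97, 5.38 and 5.37 in normoxic and 5.75, 5.50 and 5.46 in hypoxic regions. Its cultures ran from 4.88 to 5.40 and so overlapped the tumour arrays, unlike those of the 9 genes. The promoter window of RT1-DOa holds the X-like and the Y-box letters, each counted on either strand, but not in the arrangement searched. Whether strand, order or distance differs was not read.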
